A study of Homo sapiens with 11 samples.

Results

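The NRF2 pathway was examined through 10 genes in human tumour RNA: the transcription factor gene NFE2L2 (the protein is NRF2), its repressor gene KEAP1, and the target genes NQO1, GCLM, SLC7A11, TXNRD1, SRXN1, AKR1C1, AKR1C3 and HMOX1. The genes were chosen by name, and all 10 were found among the 25590 genes of the count, RPM and RPKM tables. NRF2 drives genes that make glutathione, recycle thioredoxin and detoxify reactive compounds. In unstressed cells KEAP1 holds NRF2 to a CUL3 ubiquitin ligase and NRF2 is degraded; oxidants and electrophiles modify cysteines of KEAP1, NRF2 escapes, pairs with a small MAF protein and binds antioxidant response elements near its target genes. Much of this control acts on NRF2 protein, which RNA sequencing does not measure.

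The samples were 11 tumours of PC-3, a human prostate carcinoma cell line, grown under the skin of male athymic nude mice (Crl:NU-Foxn1nu). The mice were 8 weeks old when the cells were given in matrigel. From 7 days later, 6 of the tumours were exposed to A2M, the proteinase inhibitor alpha2-macroglobulin in its transformed form (A2M* in the study), given to the mouse by intraperitoneal injection at 5.6 mg, and the other 5 tumours came from mice given PBS. The comparison asks how A2M treatment of the host changed the RNA of the tumour. All tumours came from 1 cell line in hosts that lack a normal thymus and most T cells, and only reads that the authors had assigned to human rather than mouse were counted. Samples are labelled as separate tumours, PC3_tumor_123 to PC3_tumor_127 for PBS and PC3_tumor_128 to PC3_tumor_132 and PC3_tumor_112 for A2M, without naming the mouse, so p-values measure the spread between these tumours. In such bulk samples, fewer cells of a type and less RNA per cell cannot be told apart.

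Totals of counted reads ran from 16958533 to 35874381, with 26042224 or more in each PBS tumour and 33223999 or fewer in each A2M tumour. The line's labelled type was checked with marker genes. KRT8, KRT18, EPCAM, CDH1 and VIM together reached 2003 CPM or more in every tumour (CPM, counts per 1000000 counts after TMM normalization), and KLK3, the gene of prostate-specific antigen, was at 0 counts in all 11. With edgeR's quasi-likelihood test, 0 of 16630 tested genes (0%) had a Benjamini-Hochberg adjusted p under 0.01 between A2M and PBS, and the smallest adjusted p was 0.599. An unadjusted p under 0.05 was found for 1178 genes (7.08%), and DESeq2, the likelihood ratio test and the exact test of edgeR each called 1 gene at the adjusted threshold, REP15, which is none of the 10 and is named after its values were seen.

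Short stretches around copies of the antioxidant response element core are shown because this is the DNA motif through which NRF2 and small MAF proteins act. RefSeq start windows (250 bases before and 50 after a start, from a GRCh38.p14 table, each found exactly once in GRCh37) were listed for 8 of the 10 genes, with 12 windows in all; HMOX1 and SLC7A11 were not in the table. The motif TGACNNNGC was searched on both strands. It was present in 13.3% of all 35116 windows, and in 4 of the 12 windows of these genes, from GCLM, TXNRD1 and KEAP1. The stretches below are written 5′ to 3′ on the gene's strand, with the motif in capitals, and GRCh37 positions follow.
GCLM: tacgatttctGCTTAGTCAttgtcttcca
TXNRD1 first start, upstream copy: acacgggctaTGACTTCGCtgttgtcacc
TXNRD1 first start, copy at the start: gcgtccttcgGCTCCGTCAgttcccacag
TXNRD1 other start: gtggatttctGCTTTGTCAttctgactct
KEAP1 upstream copy: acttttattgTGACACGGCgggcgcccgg
KEAP1 downstream copy: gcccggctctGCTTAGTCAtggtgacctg
The GCLM stretch lies at chr1:94375002-94375030 (minus strand). The TXNRD1 stretches lie at chr12:104609448-104609476, chr12:104609539-104609567 and chr12:104680698-104680726 (plus strand). Those of KEAP1 lie at chr19:10613483-10613511 and chr19:10613460-10613488 (minus strand). GCLM and the downstream copy in KEAP1 have the same 9 letters, TGACTAAGC on the minus strand of the gene. A match of letters is a description of these windows, and elements farther from a start were not searched.

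None of the 10 genes passed the threshold between A2M and PBS tumours (0 of 10 beside 0% of all tested genes), and 0 of 10 had an unadjusted p under 0.05, beside 7.08% of all tested genes. For each of the 10 genes the range of the 6 A2M tumours overlapped that of the 5 PBS tumours. The share of all tested genes with overlapping ranges was not computed, so the overlap is a description and not a trait of these genes. The median log2 fold change (A2M minus PBS) of the 10 genes was 0.01, with 6 above 0 and 4 below, and over all tested genes it was -0.0021. The smallest adjusted p among them was 0.797, for HMOX1 (edgeR quasi-likelihood test, Benjamini-Hochberg over 16630 genes, as for every adjusted p of a fold change below).

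**Figure D1:**
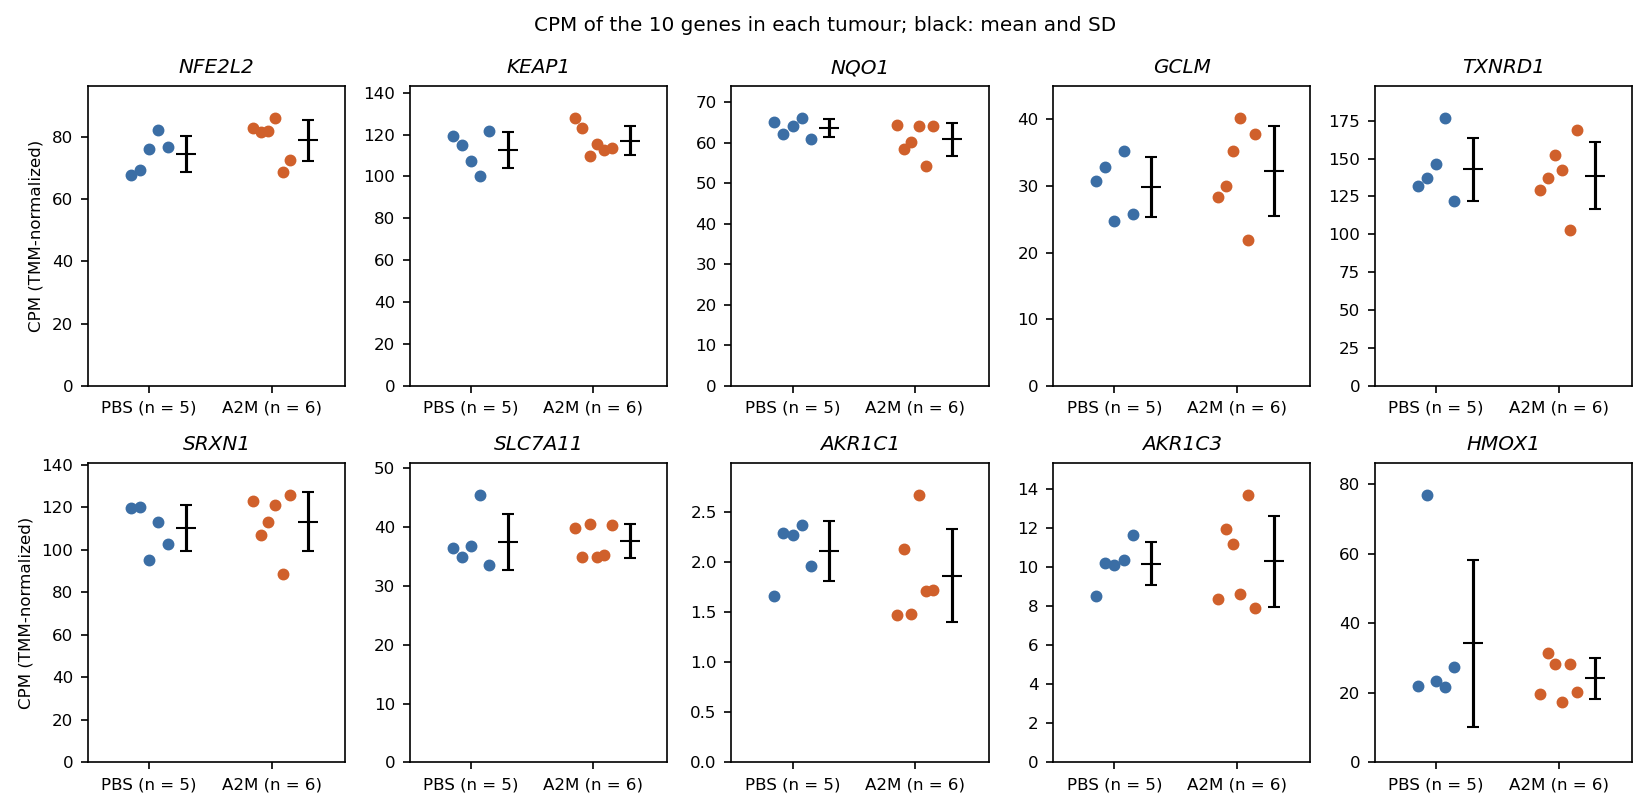
CPM (vertical axes, each starting at 0) of the 10 genes in each of 5 PBS tumours (blue) and 6 A2M tumours (orange), with the mean and SD in black. The groups overlap in every panel, and in the HMOX1 panel 1 PBS tumour, at 77.0 CPM, lies far above the other 10 tumours.

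Among the regulators, NFE2L2 (chr2:178083395-178257484, minus strand) was measured at 67.9, 69.5, 76.2, 82.0 and 76.7 CPM in PBS tumours PC3_tumor_123 to PC3_tumor_127. In the A2M tumours its lowest value was 68.8, its median 81.6 and its highest 86.0 CPM. Of the 6 A2M tumours, 4 lay above the PBS median, but all except PC3_tumor_128 and PC3_tumor_131 were inside the PBS range. The means were 74.4 ± 5.78 (SD, n = 5) and 78.9 ± 6.69 (SD, n = 6) CPM, a log2 fold change of 0.08 (SE 0.0739, 95% interval -0.08 to 0.24, adjusted p = 0.873). In the GENCODE annotation 4 other genes share exon bases with NFE2L2, and 1 other gene does so with each of NQO1, SRXN1, SLC7A11 and AKR1C3. The authors counted per RefSeq gene, so the overlaps of the counted genes may differ. Whether the authors counted by strand is not given in the sources used here.

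KEAP1, the substrate adaptor that presents NRF2 for degradation (chr19:10596801-10614234, minus strand), stood at 119.2, 115.1, 107.55, 100.45 and 121.5 CPM in PBS tumours PC3_tumor_123 to PC3_tumor_127. In A2M tumours it ran from 109.8 over a median of 114.5 to 127.8 CPM. The lowest 2 values belonged to PBS tumours and the highest 2 to A2M tumours PC3_tumor_128 and PC3_tumor_129, with the rest mixed. Its log2 fold change was 0.05 (SE 0.0657, 95% interval -0.09 to 0.20, adjusted p = 0.913), from 112.7 ± 8.68 (SD, n = 5) to 117.0 ± 6.98 (SD, n = 6) CPM.

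NQO1, a quinone reductase widely used as a readout of NRF2 activity (chr16:69740899-69760571, minus strand), varied least of the 10 genes, with a coefficient of variation of 5.59% over 11 tumours. PBS tumours PC3_tumor_123 to PC3_tumor_127 had 65.0, 62.1, 64.2, 66.05 and 60.8 CPM. The A2M tumours had a lowest value of 54.3, a median of 62.1 and a highest of 64.2 CPM. A2M tumours PC3_tumor_129, PC3_tumor_130 and PC3_tumor_132, which had the lowest totals of counted reads of the 11 tumours, lay below the whole PBS range. The other 3 lay within it. The log2 fold change was -0.06 (SE 0.0602, 95% interval -0.19 to 0.07, adjusted p = 0.887), with means of 63.6 ± 2.12 (SD, n = 5) and 60.9 ± 4.05 (SD, n = 6) CPM, and the interval corresponds to an A2M level between 0.875 and 1.05 times that of PBS.

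Of the glutathione genes, GCLM encodes the modifier subunit of glutamate-cysteine ligase, which starts glutathione synthesis (chr1:94350755-94375012, minus strand). Its values were 30.7, 32.9, 24.8, 35.2 and 25.8 CPM in PBS tumours PC3_tumor_123 to PC3_tumor_127, and in A2M tumours 21.9 at the lowest, 32.6 at the median and 40.2 at the highest. The A2M tumours enclosed the PBS range on both sides. The log2 fold change was 0.11 (SE 0.145, 95% interval -0.20 to 0.42, adjusted p = 0.919). SLC7A11, the transport chain of the cystine and glutamate exchanger that supplies cysteine for glutathione (chr4:139085251-139163503, minus strand), stood at 36.4, 34.9, 36.9, 45.5 and 33.6 CPM in PBS tumours PC3_tumor_123 to PC3_tumor_127. In A2M tumours it lay between 34.9 and 40.6, with a median of 37.6 CPM. PC3_tumor_126 had the highest value of all 11, and every A2M tumour was inside the PBS range. With means of 37.5 ± 4.69 (SD, n = 5) and 37.7 ± 2.90 (SD, n = 6) CPM, the log2 fold change was 0.01 (SE 0.0859, 95% interval -0.18 to 0.19, adjusted p = 0.990).

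Of the thioredoxin genes, TXNRD1, the cytosolic thioredoxin reductase (chr12:104609557-104744085, plus strand), had 131.95, 137.0, 146.5, 176.7 and 122.3 CPM in PBS tumours PC3_tumor_123 to PC3_tumor_127. The A2M tumours ran from 102.6 over a median of 139.8 to 168.9 CPM. Only PC3_tumor_132 left the PBS range, at its lower side. The log2 fold change was -0.04 (SE 0.119, 95% interval -0.30 to 0.21, adjusted p = 0.970), and its sign turned without PC3_tumor_126 (0.05) and without PC3_tumor_132 (0.03). SRXN1, the enzyme that restores overoxidized peroxiredoxins (chr20:627259-633844, minus strand), had 119.6, 120.1, 95.4, 113.1 and 103.0 CPM in PBS tumours and 88.8, 117.2 and 126.04 CPM as the lowest, median and highest A2M values. Again the A2M tumours reached past the PBS range on both sides. Its log2 fold change was 0.04 (SE 0.0935, 95% interval -0.16 to 0.24, adjusted p = 0.960), and -0.01 without PC3_tumor_125. Of all 50-base stretches of the SRXN1 transcript, 90.6% also occur in ENSG00000270299, an annotated gene that shares exon bases with SRXN1 on the same strand. A read from shared bases fits both annotations. The authors counted per RefSeq gene, and how such reads were counted is not given in the sources used here.

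AKR1C1 and AKR1C3 belong to a cluster of related aldo-keto reductases on chromosome 10, and AKR1C3 is known in prostate for reducing weak androgens to testosterone. AKR1C1 (chr10:5005445-5025475, plus strand) was the lowest of the 10 genes, with 36 to 75 counts per tumour. It had 1.66, 2.29, 2.26, 2.37 and 1.96 CPM in PBS tumours and 1.47, 1.71 and 2.67 CPM as the lowest, median and highest A2M values. Of the A2M tumours, 5 were below the PBS median and 1, PC3_tumor_131, was above all PBS tumours. The log2 fold change was -0.19 (SE 0.173, 95% interval -0.56 to 0.19, adjusted p = 0.882). Its coefficient of variation, 20.2%, compares with 13.3% for counting error alone at its mean count, whereas for the other 9 genes counting error was 1.57% to 5.89%.

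AKR1C3 (chr10:5077546-5149878, plus strand) had 8.52, 10.2, 10.1, 10.3 and 11.6 CPM in PBS tumours PC3_tumor_123 to PC3_tumor_127, and 7.91, 9.89 and 13.7 CPM as the lowest, median and highest A2M values. The A2M tumours spread more widely (SD 2.33, n = 6) than the PBS tumours (SD 1.10, n = 5) around means of 10.3 and 10.2 CPM; this difference in spread was not tested. The log2 fold change was 0.01 (SE 0.145, 95% interval -0.30 to 0.32, adjusted p = 0.993), and -0.09 without PC3_tumor_132. Of the 50-base stretches of AKR1C1 20.1%, and of those of AKR1C3 15.6%, also occur in other genes, mostly AKR1C2. The transcripts searched had 858 and 1405 bases, fewer than the 1379 and 1980 exon bases counted. Counts of AKR1C1 to AKR1C4 were therefore also summed. The sum was 14.8 ± 1.08 (SD, n = 5) CPM in PBS and 14.8 ± 2.88 (SD, n = 6) CPM in A2M tumours, a log2 fold change of -0.01 (SE 0.125, adjusted p = 0.993).

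HMOX1 encodes heme oxygenase, which splits heme and is driven by NRF2 and held down by BACH1 (chr22:35776354-35790207, plus strand). PBS tumours PC3_tumor_123 to PC3_tumor_127 had 21.8, 77.0, 23.5, 21.5 and 27.3 CPM, and the A2M tumours 17.2, 24.2 and 31.4 CPM as the lowest, median and highest values. Apart from PC3_tumor_124, the PBS tumours (23.5 ± 2.64, SD, n = 4) lay inside the A2M range. The log2 fold change was -0.51 (SE 0.314, 95% interval -1.18 to 0.17, adjusted p = 0.797) with all tumours and 0.03 (SE 0.163, 95% interval -0.32 to 0.39, adjusted p = 0.997) without PC3_tumor_124. The negative value of HMOX1 therefore rested on 1 of the 11 tumours.

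**Figure D2:**
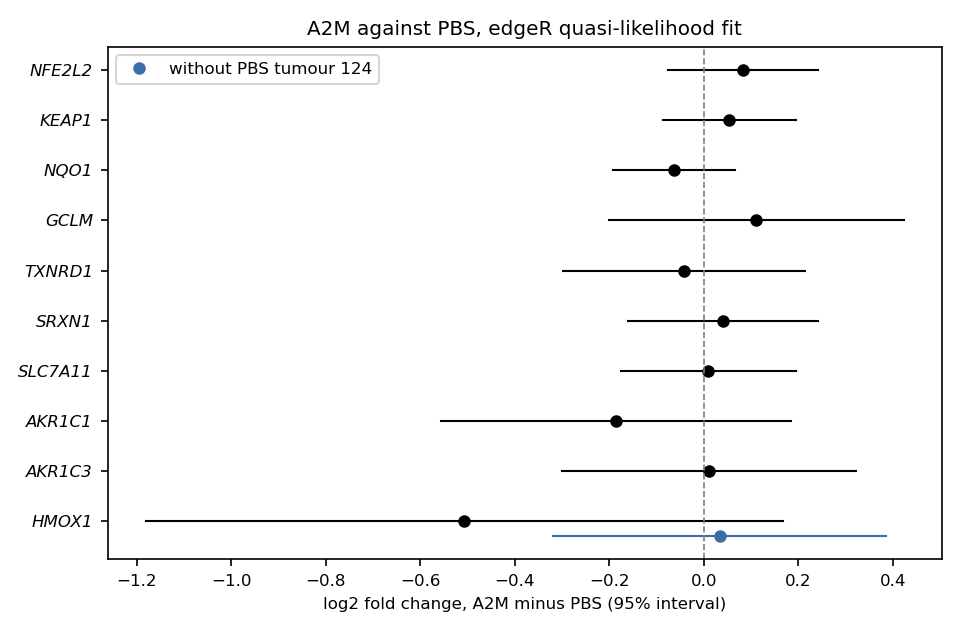
Log2 fold change (horizontal axis, A2M minus PBS) of the 10 genes from the edgeR fit on all 11 tumours, with 95% intervals in black; blue is HMOX1 fitted without PC3_tumor_124. All intervals include 0, and the HMOX1 value moves from -0.51 to 0.03 when that tumour is left out.

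In PC3_tumor_124, HMOX1 had 2388 counts and was 2.45 times the highest of the other 10 tumours, first by that measure among all 16630 tested genes of this tumour. The next genes, SLAMF9, UCN2 and ALK, named after their values were seen, were 1.49, 1.44 and 1.41 times their highest value elsewhere. A gene at least as far above the other tumours was found in 3 of the 11 tumours. Genes that act with HMOX1 did not stand out to this extent. BACH1, its repressor, was at 64.4 CPM in PC3_tumor_124, within 53.3 to 82.8 in the other PBS tumours. The ferritin genes FTH1 and FTL, whose products store the iron freed from heme, were at 1356 and 509.5 CPM, each second among the 11 tumours and below the highest other PBS values of 1445 and 515.4. MAFG, a small MAF partner of NRF2, was highest of the 11 tumours in PC3_tumor_124, at 84.9 CPM beside 64.4 to 83.6 in the other PBS tumours, and so was ATF4, a stress-response factor, at 367.2 beside 316.5 to 349.9 CPM.

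Macrophages are a known source of HMOX1, and PC3_tumor_124 was therefore read for their markers. Host macrophages, fibroblasts and endothelial cells are mouse cells, however, and only reads assigned to human were counted. The marker values below are therefore not a measure of host cell content. The summed level of the 10 macrophage and leukocyte markers was 43.6 CPM in PC3_tumor_124, the top of the PBS range (33.1 to 43.6) and close to the highest A2M value (43.0). Of these 10 genes, 4 were higher in PC3_tumor_124 than in the other 4 PBS tumours, and 1, CD68, a lysosomal protein gene, was the highest of all 11 tumours, at 29.1 CPM beside 19.2 to 28.2 in the other PBS tumours. CSF1R, the receptor for macrophage growth factor, was at 3.29 CPM beside 1.39 to 2.53, and EMR1 at 0.709 beside 0.181 to 0.398, both below the highest A2M values of 4.76 and 0.866 CPM. The other of the 4, CD163, had 1 count in PC3_tumor_124 and at most 2 in any tumour, while AIF1 had 1 count and MRC1 3 counts there. LYZ went the other way. With 195 counts and 6.28 CPM it was lowest of the 11 tumours (6.49 to 6.83 in the other PBS tumours, 6.66 to 7.35 in A2M tumours). PTPRC, CD14 and ITGAM lay inside the range of the other PBS tumours. The 6 fibroblast markers summed to 694.7 CPM in PC3_tumor_124, the highest of the PBS tumours (317.2 to 694.7), with 318.1 to 926.1 CPM in A2M tumours. The 5 endothelial markers summed to 19.5 CPM (17.6 to 24.6 in PBS tumours, 15.8 to 23.1 in A2M tumours), and the 3 red blood cell markers were at 0 in PC3_tumor_124. The part of the macrophage and fibroblast markers in the HMOX1 value was not tested.

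Compared per exon length, the deposited RPKM (reads per kilobase of exon and 1000000 reads) placed SRXN1 and KEAP1 first, with medians over 11 tumours of 42.8 (range 33.8 to 46.6) and 42.7 (37.4 to 47.6). TXNRD1 followed at 29.7 (22.8 to 38.5), NQO1 at 23.5 (21.2 to 25.3) and NFE2L2 at 22.5 (19.9 to 26.5). HMOX1 had a median of 14.2 with the widest range (11.2 to 46.3) and GCLM one of 10.1 (7.29 to 13.5). AKR1C3 at 4.92 (3.98 to 7.09), SLC7A11 at 3.75 (3.42 to 4.75) and AKR1C1 at 1.39 (1.07 to 1.99) were lowest. Neighbours in this order overlapped in range except at 2 places, between GCLM and AKR1C3 and between SLC7A11 and AKR1C1. SLC7A11 had 33.6 to 45.5 CPM, above HMOX1 in every tumour except PC3_tumor_124 and overlapping GCLM (21.9 to 40.2 CPM). Its annotated transcript was long (9648 exon bases beside 1590 for HMOX1 and 3074 for GCLM), and so it came lower per length.

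**Figure D3:**
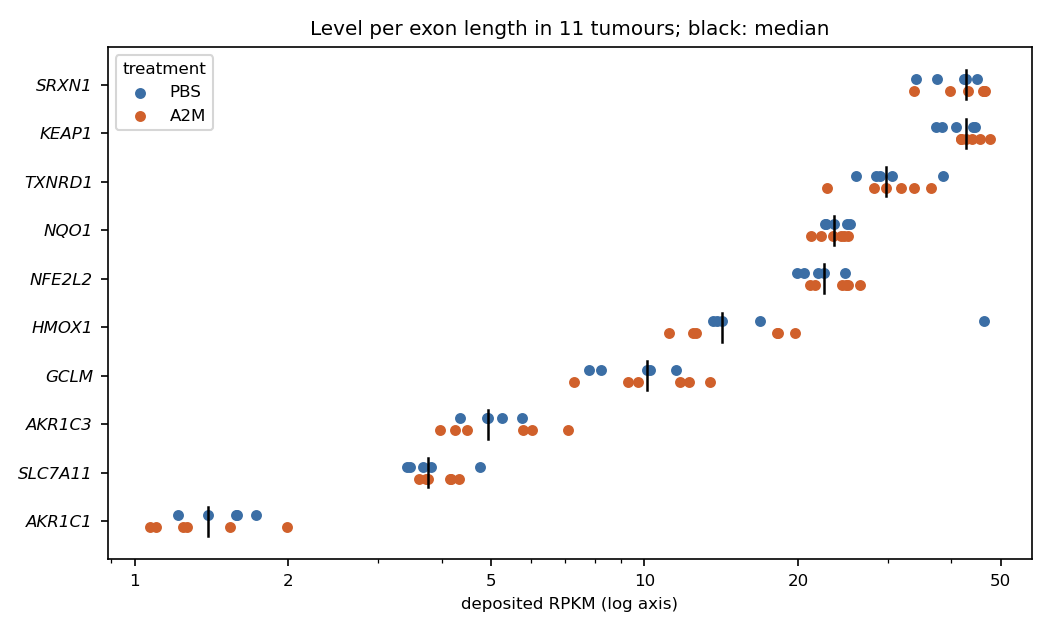
Deposited RPKM (horizontal log axis) of the 10 genes in 11 tumours, PBS in blue and A2M in orange, ordered by the median (black line). The order runs from SRXN1 and KEAP1 (42.8 and 42.7) down to AKR1C1 (1.39), and the lone HMOX1 point at 46.3 is PC3_tumor_124.

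Whether the genes varied together between tumours was asked with Pearson's r of log2 CPM over the 11 tumours for all 45 pairs. There were 3 pairs with an adjusted p under 0.05 (permutation test with 100000 resamples, Benjamini-Hochberg over 45 pairs), each with an adjusted p of 0.0327. A single pair was positive, 2.22% of the 45, and 2 pairs were negative, 4.44% of the 45. Among all pairs of tested genes 0.953% had a positive r as large, and 0.915% a negative r as far below 0 as the weaker of the 2. By Spearman's rho 0 of 45 pairs passed (smallest adjusted p 0.171, permutation test).

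GCLM and SRXN1 were positively related (r = 0.82, permutation p = 0.00181; rho = 0.71, permutation p = 0.0182, adjusted p = 0.171). The value was 0.81 within the 6 A2M tumours, and 0.70 after leaving out the 2 tumours farthest from the median of GCLM or 0.55 after leaving out the 2 farthest in SRXN1. Of all tested genes, 8.33% had an absolute r with GCLM at least this large. AKR1C3 ran the other way. With NQO1 its r was -0.83 (permutation p = 0.00091; rho = -0.75, permutation p = 0.00949, adjusted p = 0.171), -0.97 within A2M tumours, -0.63 without the 2 tumours farthest in NQO1 and -0.75 without the 2 farthest in AKR1C3. With SRXN1 its r was -0.81 (permutation p = 0.00218; rho = -0.81, permutation p = 0.00418, adjusted p = 0.171), -0.93 within A2M tumours, -0.91 without the 2 tumours farthest in SRXN1 and -0.63 without the 2 farthest in AKR1C3. Absolute values as large were reached by 0.812% of tested genes for NQO1 and by 2.21% for SRXN1. No r was computed for the PBS group of 5 tumours, so whether the relations differed between the groups was not tested.

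A single tumour had much weight in these relations. PC3_tumor_132 was the lowest of all 11 for NQO1, GCLM, TXNRD1 and SRXN1 and the highest for AKR1C3. Without it, r was -0.73 for NQO1 and AKR1C3, 0.71 for GCLM and SRXN1 and -0.70 for SRXN1 and AKR1C3, and 0 pairs passed (adjusted p = 0.221 for each, permutation test). No pair passed either when PC3_tumor_123 or PC3_tumor_127 of the PBS group or PC3_tumor_129, PC3_tumor_131 or PC3_tumor_112 of the A2M group was left out, 1 pair passed without PC3_tumor_126 and 4 without PC3_tumor_124 or PC3_tumor_125. Scaling by library size alone, without TMM factors, left 1 pair, GCLM and SRXN1. No gene had a relation with depth that passed: r with the log2 total count was farthest from 0 for NQO1 (0.57) and AKR1C3 (-0.51), with an adjusted p of 0.524 for both over 10 genes (permutation test). Without the 2 most extreme totals r was -0.13 for NQO1 and -0.02 for AKR1C3, but -0.74 for GCLM and -0.55 for TXNRD1, which had -0.01 and 0.11 over all 11 tumours. PC3_tumor_129, PC3_tumor_130 and PC3_tumor_132 had the lowest totals of the 11 tumours (16958533, 25672567 and 22310631 counts). Among the A2M tumours they also had the lowest NQO1 and the highest AKR1C3 values, so the values of r within A2M tumours run along depth too. The part of depth in the relations between genes was not tested.

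**Figure D4:**
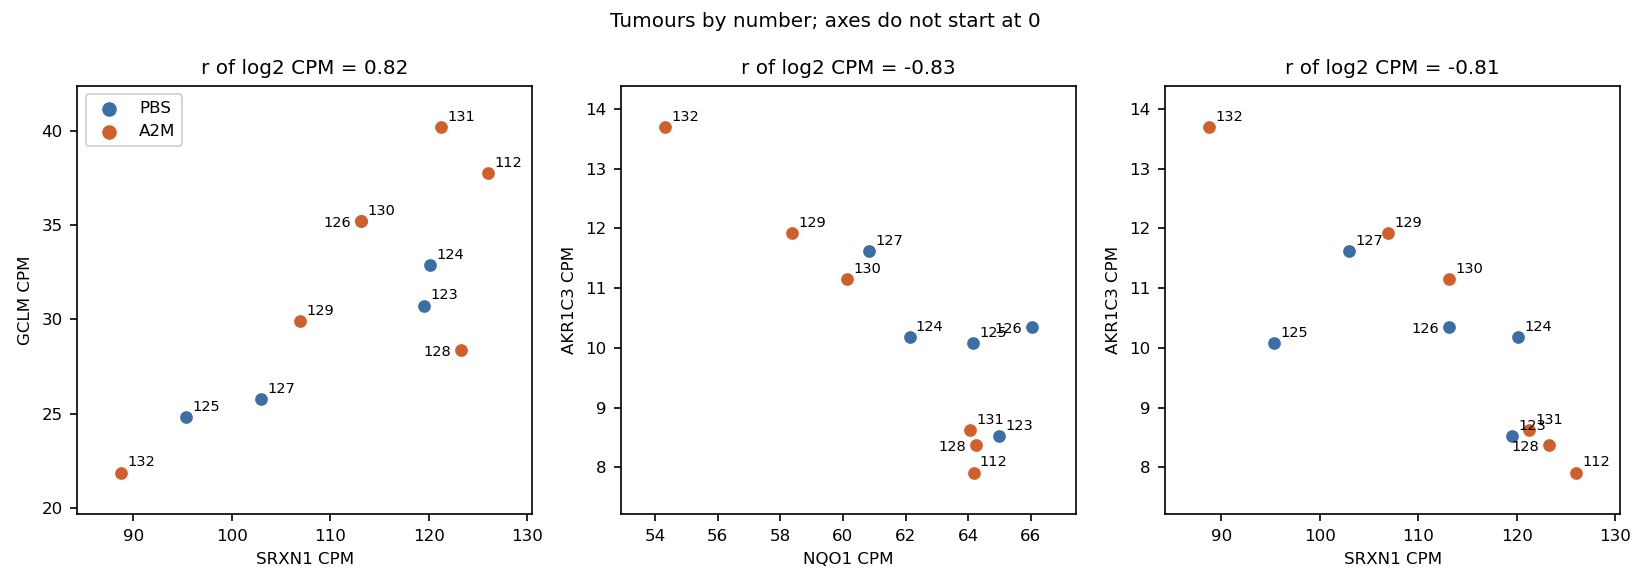
CPM of GCLM against SRXN1, AKR1C3 against NQO1 and AKR1C3 against SRXN1 in 11 tumours (PBS blue, A2M orange, the number in each tumour's name beside the point; axes do not start at 0, and in the first panel PC3_tumor_126 and PC3_tumor_130 coincide). PC3_tumor_132 lies at an extreme corner of each panel, and r of log2 CPM is 0.82, -0.83 and -0.81.

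Other target genes lay on the same side without passing. GCLM and TXNRD1 had r = 0.75 (adjusted p = 0.0843), TXNRD1 and SLC7A11 0.70 and NQO1 and TXNRD1 0.70 (adjusted p = 0.148 each, permutation test). Without the 2 tumours farthest in TXNRD1 these were 0.58, 0.61 and 0.14. Absolute values as large were reached by 15.7% of tested genes for GCLM, 18.2% for TXNRD1 and 6.64% for NQO1. NQO1 and SRXN1 had r = 0.66 (adjusted p = 0.166, permutation test). Their r was 0.98 within A2M tumours, 0.23 without the 2 tumours farthest in NQO1 and 0.64 without the 2 farthest in SRXN1. For NFE2L2 RNA no pair with a target passed. The largest r was 0.38, with GCLM and with TXNRD1, and the most negative -0.43, with HMOX1 (adjusted p = 0.587, 0.587 and 0.561, permutation test). KEAP1 had r = -0.55 with SLC7A11 and -0.52 with TXNRD1 (adjusted p = 0.357 for both, permutation test). AKR1C1 and AKR1C3, the paralogues, had r = 0.04. HMOX1 had no pair past the threshold with all tumours (r = 0.41 with AKR1C3), whereas without PC3_tumor_124 its r with AKR1C3 was 0.86 (adjusted p = 0.0366; rho = 0.84, adjusted p = 0.0907, permutation tests, n = 10) and with NQO1 -0.77 (adjusted p = 0.0631, permutation test, n = 10). PC3_tumor_124 was singled out by its HMOX1 value in these same data, so the values without it are a description.

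**Figure D5:**
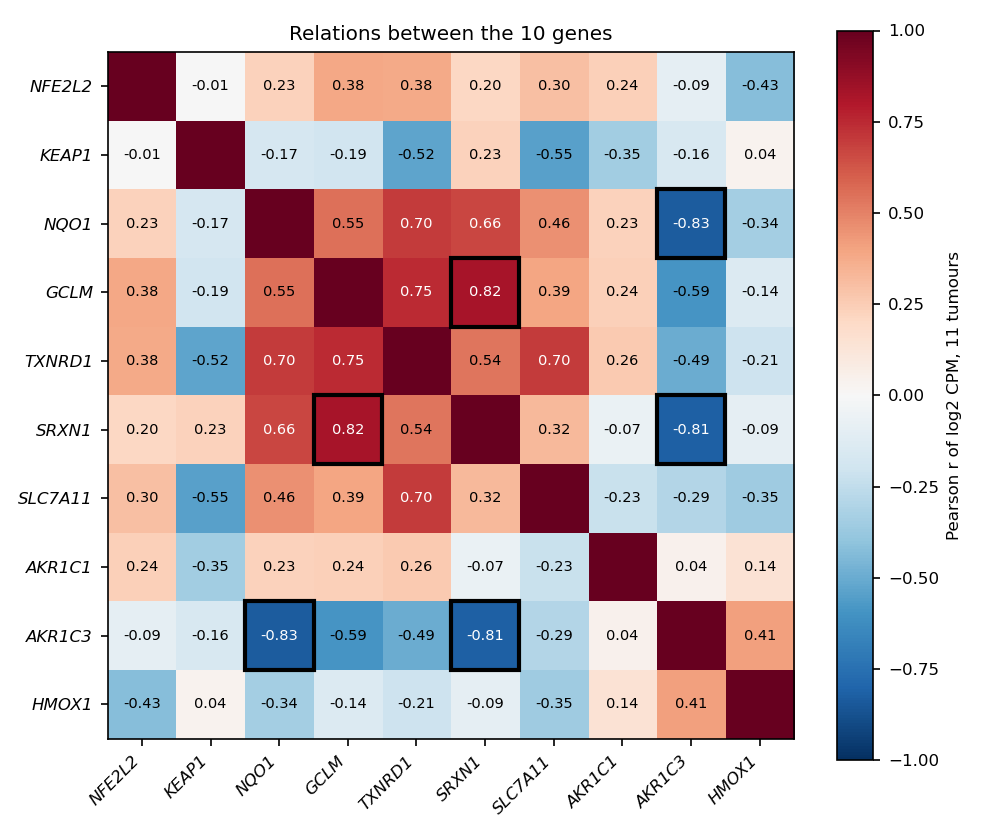
Pearson's r of log2 CPM over 11 tumours for each pair of the 10 genes (red positive, blue negative), with the pairs past an adjusted p of 0.05 framed. NQO1, GCLM, TXNRD1, SRXN1 and SLC7A11 have positive r with each other, from 0.32 (SRXN1 and SLC7A11) to 0.82 (GCLM and SRXN1). Of these pairs, only GCLM and SRXN1 passed. Absolute values as large as these ends were reached by 54.9% of tested genes for SRXN1 and 8.33% for GCLM. AKR1C3 is negative to each of these genes, from -0.83 with NQO1 to -0.29 with SLC7A11. Absolute values as large were reached by 0.812% of tested genes for NQO1 and 59.0% for SLC7A11. NFE2L2 reaches at most 0.38 with any target.

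The partners and regulators of NRF2, a list of 10 genes, had a median log2 fold change of -0.10, with 0 past the adjusted threshold and 1 of 10 at an unadjusted p under 0.05, beside 7.08% of all tested genes. This was BTRC, an adaptor of a KEAP1-independent ubiquitin ligase for NRF2, at 37.7 ± 1.81 (SD, n = 5) CPM in PBS and 42.7 ± 2.83 (SD, n = 6) CPM in A2M tumours (log2 fold change 0.18, SE 0.0649, adjusted p = 0.640). The next smallest p-values belonged to BACH2 (0.06) on the higher side, and to RBX1 (-0.11) and NFE2L1 (-0.10) on the lower side, in log2 fold change.

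Of 30 other NRF2 targets, the median was -0.05, and 0 passed the adjusted threshold. FTH1, the ferritin heavy chain gene, had the smallest p on the lower side, with 1267 ± 161 (SD, n = 5) against 1099 ± 96.9 (SD, n = 6) CPM (log2 fold change -0.21, SE 0.0942, unadjusted p = 0.0470, adjusted p = 0.699, edgeR quasi-likelihood test). It was followed by BLVRB (-0.20), a biliverdin reductase acting after heme oxygenase, and on the higher side by GSTA4 (0.12) and ALDH3A1 (0.39, at 0.679 and 0.903 CPM). FTH1 was the only 1 of the 30 with an unadjusted p under 0.05, beside 7.08% of all tested genes.

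Among 17 other antioxidant enzymes, with a median of -0.02, 2 of 17 had an unadjusted p under 0.05, beside 7.08% of all tested genes, and 0 passed the adjusted threshold. GLRX, a glutaredoxin that removes glutathione from proteins, had 70.2 ± 13.4 (SD, n = 5) CPM in PBS and 52.9 ± 7.38 (SD, n = 6) CPM in A2M tumours (log2 fold change -0.41, SE 0.124, adjusted p = 0.599). PRDX4, the peroxiredoxin of the endoplasmic reticulum, had 233.1 ± 17.9 (SD, n = 5) and 207.1 ± 10.4 (SD, n = 6) CPM (-0.17, SE 0.0650, adjusted p = 0.643). On the higher side GPX3 (0.26) and GLRX2 (0.05) had the smallest p-values.

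The 12 genes of the ATF4 pathway, which also drives SLC7A11 under amino acid shortage, had a median of -0.07. ASNS, asparagine synthetase (0.23, adjusted p = 0.698), and PSAT1 (0.17), of serine synthesis, led the higher side, and ATF4 (-0.13, adjusted p = 0.699) and ATF3 (-0.55, adjusted p = 0.734) the lower side. ATF4 and ASNS had an unadjusted p under 0.05 with opposite signs, beside 7.08% of all tested genes at this level.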

How the data were processed

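RNA of 11 tumours was sequenced with Illumina TruSeq libraries. Per the labels the authors used bcl2fastq 1.8.4, TopHat2 and featureCounts with hg19 and mm10, and per the study's methods reads were assigned to human or mouse with xenome beforehand. The authors deposited raw counts per RefSeq gene, RPM (counts per 1000000 counts of the tumour) and RPKM (RPM per kilobase of exon). The strand and multiple-mapping settings are not given in the sources used here. Species sorting can remove reads from stretches that human and mouse share.

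Counts were filtered with filterByExpr, TMM-normalized and tested over 16630 genes in R 4.3.3 (edgeR 4.0.16, quasi-likelihood F-test), at an adjusted p under 0.01. CPM use TMM factors (0.958 to 1.03), and log2 CPM a prior count of 2. The standard error is the log2 fold change divided by the square root of F. Totals of 16958533 to 35874381 counts put 3 counts at 0.0836 to 0.177 RPM, counting error only. Relations used permutation tests in Python 3.11.15. The edgeR quasi-likelihood fit was tested on simulated data. Alternatives were other normalizations, filters, DESeq2 1.42.0, limma-voom (limma 3.58.1), log2(RPKM + 0.1), other thresholds, summed paralogues and leaving out each tumour.

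Groups followed the treatment label, without covariates. All 10 genes were named. From each list of related genes, the text names, on the higher and on the lower side, the 2 tested genes of smallest p, and any at an unadjusted p under 0.05. The genes, lists and tests were chosen with earlier results of these data known. Positions are GENCODE genes on GRCh37. Figures were drawn with matplotlib 3.10.9. Mouse reads were not analysed here.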

Additional observations from a re-analysis of the deposited data

Results flagged for a closer look

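In the 20 sets of values formed by the 10 genes in each treatment group, 2 held a tumour whose gap to the next value was large for the range of its group, where chance gives about 1 in 20. HMOX1 in the PBS group was flagged for PC3_tumor_124, at 77.0 CPM with the next PBS tumour at 27.3. For this tumour, 72 of the 16630 tested genes (0.433%) met the same criterion on the upper side of the PBS group, and for 6 of them, HMOX1 included, the gap took at least as large a share of the range as for HMOX1. SLC7A11 in the PBS group was flagged for PC3_tumor_126, at 45.5 CPM beside 33.6 to 36.9 CPM in the other PBS tumours. That tumour was also the highest of all 11 for NQO1 and TXNRD1 and the lowest for KEAP1.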

How the results depend on the processing

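Over all alternatives, 0 of the 10 genes passed the adjusted threshold and 0 had an unadjusted p under 0.05. Of 212 fold changes, 196 kept their sign and 16 turned, in 5 genes. In this count the value of the summed paralogues stands for both AKR1C1 and AKR1C3. For AKR1C3 the fold change turned to -0.030 with limma-voom and to -0.0093 with the paralogues summed. Leaving out each tumour in turn gave -0.10 to 0.046 for TXNRD1, -0.0082 to 0.10 for SRXN1, -0.027 to 0.088 for SLC7A11, -0.090 to 0.079 for AKR1C3 and -0.63 to 0.033 for HMOX1. The number of genes called over the whole table was 0 in the main test, 1 with DESeq2, 1 with the likelihood ratio test, 1 with the exact test and 294 where the exact test and DESeq2 both had to give an unadjusted p of 0.01 or less. The 3 related pairs became 1 with library size alone, 5 with values centred on the group mean and 0 to 4 when a tumour was left out. In the order of levels, 8 of 10 genes kept their place when CPM per exon length replaced RPKM, and SRXN1 and KEAP1 changed places. What caused these moves was not tested. No paired analysis was possible because the groups share no tumour numbers. Depth limits AKR1C1 most, at 36 to 75 counts per tumour.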

Other observations

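The genes most alike to 4 of the members across the 11 tumours are given as a description, without a test, since each is the top of 16630 tested genes. For NFE2L2 they were PDCD7 (r = 0.95), MEX3C (0.95) and ZSCAN29 (0.93). NQO1 had MPRIP (0.96), OGFRL1 (0.94) and GPN1 (0.91), and SLC7A11 had STX17 (0.94), CHMP5 (0.92) and MED13L (0.91). For HMOX1, FNDC4 (0.87), SIPA1L2 (0.85) and PGAM1P5 (0.85) came first. None of the 12 is on the lists of NRF2 partners, targets or antioxidant enzymes.

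The markers of other cells were also compared between the groups with edgeR's quasi-likelihood test. An unadjusted p under 0.05 was found for 1 of 4 fibroblast, 1 of 4 endothelial and 0 of 7 macrophage and leukocyte markers tested, beside 7.08% of all tested genes. These were COL1A2, a fibroblast collagen gene, with a log2 fold change of 0.73 (unadjusted p = 0.0459), and VWF, an endothelial gene, with -0.42 (unadjusted p = 0.0247). No marker passed the adjusted threshold. Only reads assigned to human were counted, so these values are not a measure of the mouse cells of the host.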
